A study of Homo sapiens with 2 samples.

Results

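Collagen genes were described in HEK293T cells, a human embryonic kidney line, after transfection of tRF-3004b, a fragment of a transfer RNA. One library came from cells given a tRF-3004b mimetic and 1 from cells given a non-targeting control RNA (GL2); each RNA was used at 500 nM with a lipid reagent and cells were collected after 120 h. Both RNAs were synthetic oligonucleotides with a 5' phosphate, and no other genotype or treatment separated the cells per the labels. Members were the protein-coding genes whose symbol is COL, a number, A and a number, and 44 genes of 28117 named genes met this rule. Of these, 20 had at least 1 CPM (CPM is the gene's count scaled to a common library size) in the control library and are called expressed here. The other 24 were near zero there. The nearest members on either side of that limit were COL4A4, with 39 control counts, and COL23A1, with 19.

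Collagens are extracellular matrix proteins whose chains wind around each other through long repeats that carry a glycine at regular steps. Fibrillar collagens build the cables of connective tissue, type IV collagens form the sheet of basement membranes, type VI forms beaded filaments, FACIT collagens sit on the surface of fibrils, and a few members are anchored in the cell membrane. Kidney epithelia rest on type IV basement membranes, whose chains change during glomerular maturation. The chains are modified by prolyl and lysyl hydroxylases in the endoplasmic reticulum, folded with the help of the chaperone HSP47, trimmed outside the cell and cross-linked by lysyl oxidases.

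The mimetics are shown because every comparison rests on them. They are written 5' to 3' with bases 2 to 8, the stretch that pairs with a target when a small RNA is loaded into an Argonaute protein, in capitals.
tRF-3004b mimetic: uCAAAUCUcgguggaaccucca
GL2 control: cGUACGCGgaauacuucgauu

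With 1 library per group there was no spread between samples to measure, so no difference has a p-value or a replicate check. Each 95% interval is an exact Clopper-Pearson interval and covers counting error only, and every statement compares these libraries, not the conditions. The tRF-3004b library held 1809193 estimated counts and the control library 19609933, an 11.2-fold difference after scaling. Of genes listed as typical of HEK293T, VIM had 1740 and 28858 counts and NEFL 94 and 1950 in the tRF-3004b and control libraries, NEFM had 24 and 214 and INA 17 and 81, whereas PAX2 had 2 and 19 and LHX1 0 and 61. A log2 ratio here is always tRF-3004b over control, so a negative one means fewer scaled counts with tRF-3004b. Over all 13531 genes with at least 1 CPM in the control library the median log2 ratio was -0.19, so the values below are read against that and not against 0 alone.

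The collagens of the control library were mainly COL25A1, type IV chains, COL14A1 and type VI chains. On the TPM scale, which is per transcript length and can be compared between genes, the 44 genes summed to 73.6 TPM in the tRF-3004b library and 126 TPM in the control library. COL25A1, a collagen anchored in the cell membrane and known from neurons, had 8.92 TPM in the tRF-3004b library and 25.4 TPM in the control library, where it ranked highest. COL4A5, a basement membrane chain, had 9.87 and 19.1 TPM and ranked highest in the tRF-3004b library. COL4A1 had 7.38 and 14.1 TPM, COL14A1, a FACIT collagen, 4.50 and 11.1 TPM, and COL6A1 6.29 and 10.9 TPM in the same order of libraries. The order was not the same in both libraries. COL1A2, a fibrillar collagen, had rank 6 in the tRF-3004b library with 6.18 TPM and rank 25 in the control library with 0.180 TPM. COL3A1, a fibrillar collagen of soft connective tissue, had rank 4 in the tRF-3004b library with 6.80 TPM and rank 19 in the control library with 0.913 TPM, and COL6A2, a type VI chain, had rank 26 with 0.298 TPM and rank 6 with 6.88 TPM.

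**Figure D1:**
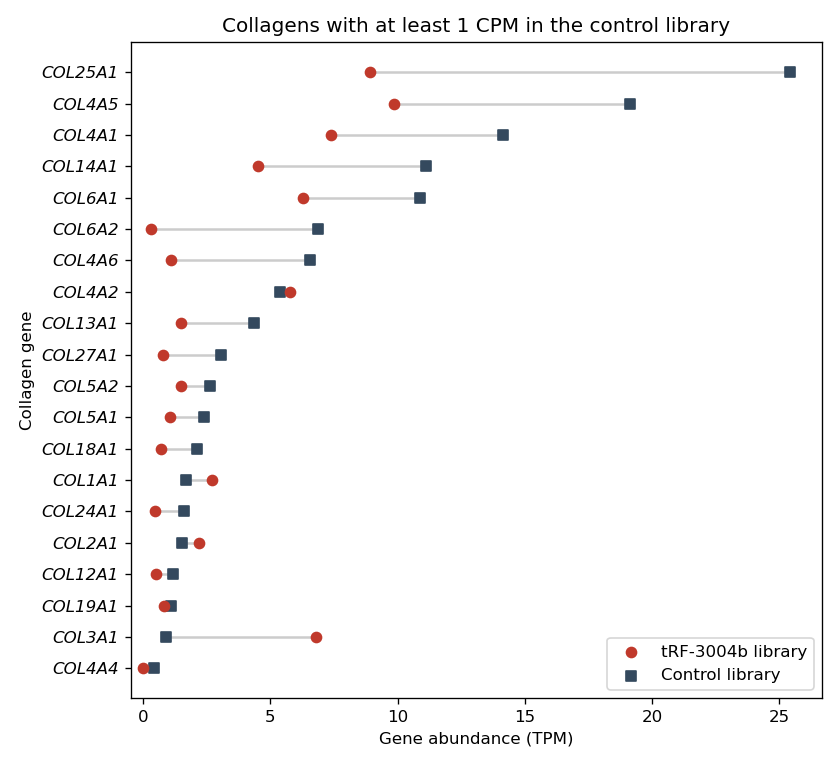
Abundance in TPM (horizontal axis) of the 20 collagens with at least 1 CPM in the control library, ordered by their control level, in the tRF-3004b library (red circles) and the control library (dark squares), 1 library each. COL25A1 stands at 8.92 and 25.4 TPM, and COL3A1, COL1A1, COL2A1 and COL4A2 are the genes with the red circle to the right.

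Of the expressed collagens, 16 had a log2 ratio below 0, against 60.0% of all genes with at least 1 CPM in the control library, and 4 above it. Their median log2 ratio was -0.89, or -0.72 with COL4A4, which had no tRF-3004b count, placed at its bound. Of the 20 genes 8 with tRF-3004b counts were at least 2-fold lower, against 13.5% of all genes, and 2 were at least 2-fold higher, against 7.54%. With COL4A4, whose fitted value passed the limit but whose counts do not bound it there, the lower ones were 9, against 17.7% counted in the same way. All but COL25A1 of these 9 had under 10 tRF-3004b counts. The higher ones were COL3A1 and COL1A1, and COL1A1 no longer passed when libraries were scaled by total counts. The whole interval lay below 0 for 7 collagens, against 29.0% of all genes, and above 0 for 2, against 20.1%. Whether an interval clears 0 depends on the counts, and 10 of the 20 genes had under 10 tRF-3004b counts. All genes are not matched to the collagens for this, so these shares give no verdict on the family. Summed over all 44 genes there were 450 counts in the tRF-3004b library and 7092 in the control library, which gave a log2 ratio of -0.49 (interval -0.63 to -0.35), or -0.12 after subtraction of the length-bin medians described next.

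Transcript length moved with these ratios, and collagen transcripts are long. In 10 bins of transcript length the median log2 ratio of all genes was 0.63 in the shortest bin and -0.44 in the longest, and 11 and 13 of the 44 collagens fell in the longest pair of bins. Among genes with 1 to 100 CPM in the control library and transcripts of at least 4000 bases the median was -0.41, with 19.7% at least 2-fold lower with tRF-3004b counts and 4.51% at least 2-fold higher, while the 18 collagens in that range had a median of -0.72, with 6 lower and 2 higher by the same limits. Measured from the median of its own length bin, the median collagen stood at -0.45. The interval lay wholly below the bin median for 5 of the 20 genes (COL25A1, COL4A6, COL6A2, COL14A1 and COL27A1), against 22.5% of all genes, and wholly above it for 4 (COL3A1, COL1A1, COL2A1 and COL4A2), against 22.0%. These shares were close to those of all genes.

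**Figure D2:**
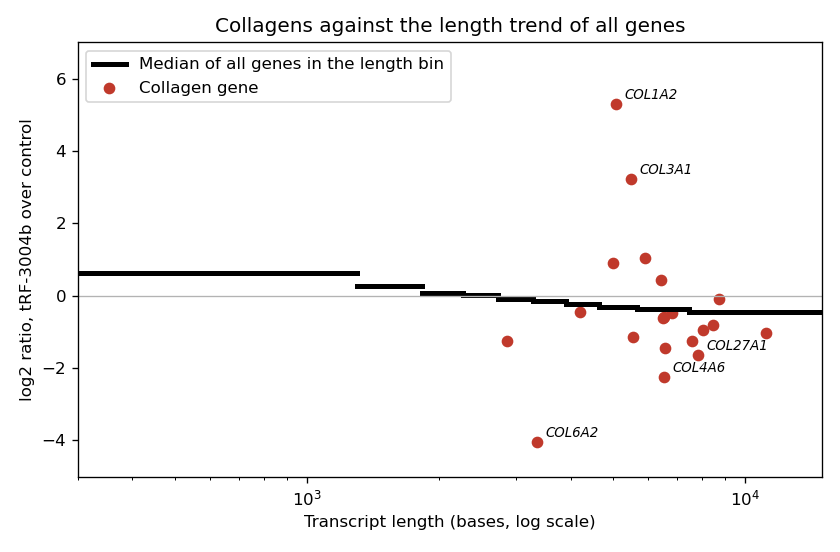
Log2 ratio of tRF-3004b over control (vertical axis) against transcript length in bases (log axis) for the expressed collagens with tRF-3004b counts and COL1A2 (red points), with the median of all genes in each of 10 length bins (black lines). The medians run from 0.63 in the shortest bin to -0.44 in the longest, and genes beyond 1.5 in either direction carry their name.

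Among the basement membrane chains, COL4A6 was the lowest with tRF-3004b counts and COL4A2 the highest. COL4A1 (chromosome 13, 110148963 to 110307157, GRCh38) had 48 counts in the tRF-3004b library and 814 in the control library, giving a log2 ratio of -0.59 (interval -1.05 to -0.17). COL4A2 (chromosome 13, 110307284 to 110513209), whose chain joins that of COL4A1 in the most widespread type IV trimer, had 37 and 306 counts at 0.44 (interval -0.09 to 0.94). The COL4A1 interval lay below 0 and the COL4A2 interval included it. COL4A5 (chromosome X, 108439838 to 108697545) had 64 and 1099 counts at -0.61 (interval -1.0 to -0.25). COL4A6 (chromosome X, 108155614 to 108439458), its partner in the trimer of Bowman's capsule, had 7 and 378 counts at -2.25 (interval -3.59 to -1.21), 4.77-fold lower. COL4A3 and COL4A4, the other chains of the mature glomerular basement membrane, had no counts in the tRF-3004b library against 7 and 39 in the control library. For COL4A4 this was at least 1.16-fold lower, taking 3 tRF-3004b counts as the limit that a count of 0 allows, but its interval, which also counts the error of the control value, ended at 0.16 and included 0. The COL4A3 level in the control library was below that limit.

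The type IV genes lie in head-to-head pairs, each pair read outward from a shared stretch of DNA, and in both pairs with tRF-3004b counts the partners did not keep their proportion between the libraries. The start sites of COL4A1 and COL4A2 are 127 bases apart, and those of COL4A5 and the nearer COL4A6 start 380 bases apart. For COL4A3 and the only COL4A4 start with a RefSeq window the distance is 419 bases. The COL4A4 gene itself reaches nearer, to position 227164488, against 227164624 for the COL4A3 start. COL4A2 stood at 0.782 of the TPM of COL4A1 in the tRF-3004b library and at 0.382 in the control library, and the log2 ratio of their ratios, which needs no library scaling, was 1.04 (exact interval 0.35 to 1.72). COL4A6 stood at 0.109 of the TPM of COL4A5 in the tRF-3004b library and at 0.343 in the control library, with a log2 ratio of ratios of -1.65 (interval -3.04 to -0.51). These are among 7 gene pairs compared in this way, chosen with the values known, and their intervals are not adjusted for that number. How often other pairs of genes differ by as much was not tested. The stretch between the starts of COL4A1 and COL4A2, and the part of that between COL4A5 and COL4A6 nearer to COL4A6, are shown as the RefSeq window (GRCh38.p14) from 250 bases before to 50 bases after the start named, in the direction of that gene, with each CCAAT box (CCAAT) and GC box (GGGCGG), read on either strand, in capitals.
COL4A2, chr13:110307034-110307333, plus strand: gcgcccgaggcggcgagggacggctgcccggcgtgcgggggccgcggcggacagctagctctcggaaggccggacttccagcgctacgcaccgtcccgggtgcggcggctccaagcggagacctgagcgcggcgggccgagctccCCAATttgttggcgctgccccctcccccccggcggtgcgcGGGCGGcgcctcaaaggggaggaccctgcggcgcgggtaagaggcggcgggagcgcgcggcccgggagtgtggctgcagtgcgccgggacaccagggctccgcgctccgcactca
COL4A6, chrX:108439409-108439708, minus strand: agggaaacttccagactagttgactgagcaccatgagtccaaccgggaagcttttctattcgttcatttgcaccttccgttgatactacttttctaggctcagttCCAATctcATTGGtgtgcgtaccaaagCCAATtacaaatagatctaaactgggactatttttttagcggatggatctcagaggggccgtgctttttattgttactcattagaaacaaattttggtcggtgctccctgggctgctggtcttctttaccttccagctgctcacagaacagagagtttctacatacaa

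The start of COL4A1 lies inside the COL4A2 window, which holds 1 CCAAT box and 1 GC box. The window of the nearer COL4A6 start overlaps that of COL4A5 but does not reach the COL4A5 start, and it holds 3 CCAAT boxes and no GC box. Of the 44 collagens 32 had a window in the RefSeq table. Some had several starts, which gave 44 windows. The letters CCAAT occurred in 14 of these windows (31.8%), against 34.6% of all 35116 windows, GGGCGG in 24 (54.5%), against 45.0%, and TATAAA in 8 (18.2%), against 11.5%. Each motif was searched on both strands, and a match describes the letters only.

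Type VI chains differed from each other. COL6A1 (chromosome 21, 45981770 to 46005048) had 26 counts in the tRF-3004b library and 398 in the control library, giving a log2 ratio of -0.45 (interval -1.08 to 0.13). COL6A2 (chromosome 21, 46098112 to 46132848), its neighbour and partner chain in the same filament, had 1 and 199 counts, where 17.7 would stand for an equal level, for a log2 ratio of -4.04 and a wide interval from -9.46 to -1.65. The ratio of their ratios was -3.70 on the log2 scale (interval -9.07 to -1.07), and COL6A2 stood at 0.0473 of the TPM of COL6A1 in the tRF-3004b library and 0.633 in the control library. The remaining chains of the type were near zero, COL6A3 with 5 and 11 counts, COL6A5 with 2 and 7 and COL6A6 with 0 and 13.

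COL25A1 and COL14A1 were lower in the tRF-3004b library, and the other expressed transmembrane, FACIT and multiplexin collagens had intervals that included 0. COL25A1 (chromosome 4, 108808725 to 109302658) had 64 counts in the tRF-3004b library and 1701 in the control library, giving a log2 ratio of -1.24 (interval -1.63 to -0.88), 2.37-fold lower. COL13A1, a membrane collagen of muscle and its nerve endings, had 4 and 108 counts at -1.25, with an interval from -3.17 to 0.13 that included 0. Among FACIT collagens, COL14A1 (chromosome 8, 120124454 to 120373573) had 36 and 788 counts at -0.96 (interval -1.49 to -0.48). COL12A1, found in tendon and muscle, had 5 and 116 counts at -1.04 (interval -2.70 to 0.22) and COL19A1 7 and 84 counts at -0.10 (interval -1.45 to 1.01). The multiplexin COL18A1, from which endostatin is cut, had 4 and 100 counts at -1.14 (interval -3.06 to 0.25), and 25.8% of its exon bases overlap SLC19A1 on the other strand, so its value is uncertain. The library kit kept strand, but the strand setting of the counting is not given in the sources used here.

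Fibrillar collagens went in both directions. The cartilage collagen COL27A1 (chromosome 9, 114154098 to 114312511) had 6 counts in the tRF-3004b library and 211 in the control library, giving a log2 ratio of -1.63 (interval -3.11 to -0.50). COL24A1, known from developing bone, had 3 and 94 counts at -1.46, COL5A1 9 and 179 counts at -0.82 and COL5A2 10 and 157 counts at -0.48, each with an interval that included 0. COL5A1 and COL5A2, whose chains start type I fibrils, had a log2 ratio of ratios of 0.34 with an interval from -1.15 to 1.86, too wide to tell whether their proportion differed. COL2A1, the main collagen of cartilage, had 11 and 65 counts at 0.92, and its interval from -0.15 to 1.86 also included 0.

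COL3A1, COL1A1 and COL1A2, the main collagens of skin and other connective tissue, were higher in the tRF-3004b library. COL3A1 (chromosome 2, 188974373 to 189012746) had 37 counts in the tRF-3004b library and 44 in the control library, where 3.92 would stand for an equal level, for a log2 ratio of 3.21 (interval 2.57 to 3.90). COL1A1 (chromosome 17, 50184101 to 50201631) had 16 and 87 counts at 1.04 (interval 0.18 to 1.83). COL1A2, near zero in the control library with 8 counts, had 31 in the tRF-3004b library, giving a log2 ratio of 5.29 (interval 4.29 to 6.78), 39.1-fold higher. The type I chains did not keep their proportion, since COL1A2 stood at 2.27 times the TPM of COL1A1 in the tRF-3004b library and 0.108 times in the control library (log2 ratio of ratios 4.35, interval 2.92 to 5.94). COL5A2, which lies next to COL3A1 on chromosome 2, differed from it by -3.70 (interval -4.99 to -2.54). Together COL1A1, COL1A2 and COL3A1 made up 21.3% of collagen TPM in the tRF-3004b library and 2.20% in the control library. Without them the summed counts of the other 41 genes had a log2 ratio of -0.76 (interval -0.91 to -0.61).

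Markers of several other cell types were also higher in sum, and those of chondrocytes lower. For single markers, an interval above 0 was found in 20.1% of all genes with at least 1 CPM in the control library and in 13.3% of those below it with a count. Of protein-coding genes below it with a count, 604 of 3698 had one. The 11 fibroblast markers summed to 81.1 CPM in the tRF-3004b library and 43.5 CPM in the control library; 4 of them had an interval above 0 (LUM, DCN, POSTN and MFAP5), 1 below (FBN1), and none was at 0 in both libraries. FBN1, at a log2 ratio of -0.51, gave 46 of their 144 tRF-3004b counts and 735 of their 867 control counts. LUM had 45 and 34 counts, DCN 34 and 15, MFAP5 6 and 0, and PDGFRA 6 and 58, while ASPN had 0 and 11 and FAP 0 and 3. SPARC, a collagen-binding protein named here after its values were seen, had 15 and 15 counts. Markers of epithelium and urothelium summed to 44.5 CPM in the tRF-3004b library and 11.1 CPM in the control library, with 6 of 11 intervals above 0 and KRT5, KRT14 and UPK3A at 0 in both. Blood markers summed to 55.2 and 5.27 CPM, with 8 of 11 intervals above 0 and none at 0 in both. JCHAIN alone gave 39 of their 98 tRF-3004b counts. Endothelial markers summed to 5.07 and 1.20 CPM, with 2 of 7 intervals above 0 and TEK and CLDN5 at 0 in both. The 7 chondrocyte markers summed to 5.07 and 20.2 CPM, and ACAN, HAPLN1 and CNMD were at 0 in both. SOX9, with 7 and 274 counts, and MATN3, with 2 and 111, had an interval below 0 and gave most of the 403 control counts. Only these 2 reached 1 CPM in the control library, and of all genes that did, 29.0% had an interval below 0. In bulk RNA, more or fewer cells of a type and more or less RNA per cell cannot be told apart. The part of other cells and of the difference in depth in the values of COL1A1, COL1A2 and COL3A1 was not tested.

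**Figure D3:**
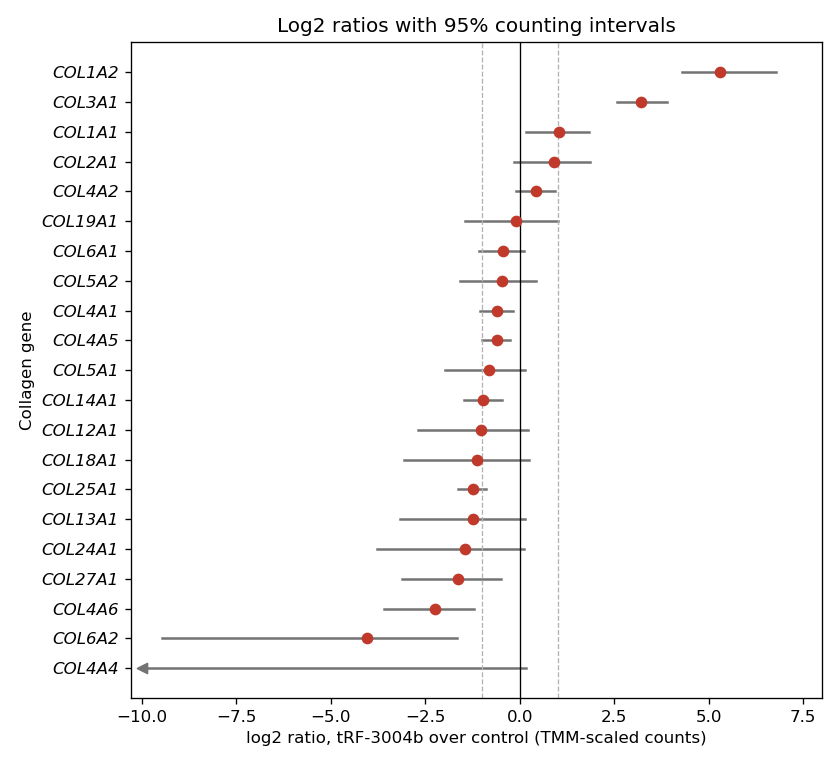
Log2 ratio of tRF-3004b over control (horizontal axis) with its 95% counting interval (bars) for the 20 expressed collagens and COL1A2, with dashed lines at 2-fold. COL1A2, COL3A1 and COL1A1 lie above 0 with their whole interval, 7 genes lie below it, and COL4A4, with 0 tRF-3004b counts, has an interval open to the left and no point.

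Fibrillar collagens held 29.8% of the summed collagen TPM in the tRF-3004b library and 11.1% in the control library, basement membrane chains 32.7% and 36.3%, transmembrane collagens 14.4% and 24.3%, beaded filament chains 10.0% and 14.4%, and FACIT collagens 8.68% and 11.2%. Summed counts gave a log2 ratio of 0.73 for fibrillar collagens (interval 0.45 to 1.00), but of these COL1A1, COL1A2 and COL3A1 gave 84 of 125 tRF-3004b counts and 139 of 845 control counts. Without them the fibrillar sum turned to -0.62 (interval -1.11 to -0.16), and the median of the 7 expressed fibrillar genes was -0.48. The other classes stood at -0.59 for basement membrane chains (interval -0.84 to -0.36), -0.72 for beaded filament chains (interval -1.26 to -0.22), -0.84 for FACIT collagens (interval -1.28 to -0.43) and -1.24 for transmembrane collagens (interval -1.61 to -0.89). Single genes weighed heavily in some of these sums. COL25A1 gave 64 of 69 tRF-3004b and 1701 of 1828 control counts of transmembrane collagens. COL14A1 gave 36 of 50 and 788 of 1005 for FACIT collagens, and COL6A2 1 of 34 and 199 of 628 for beaded filament chains. The class sums were not corrected for transcript length.

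**Figure D4:**
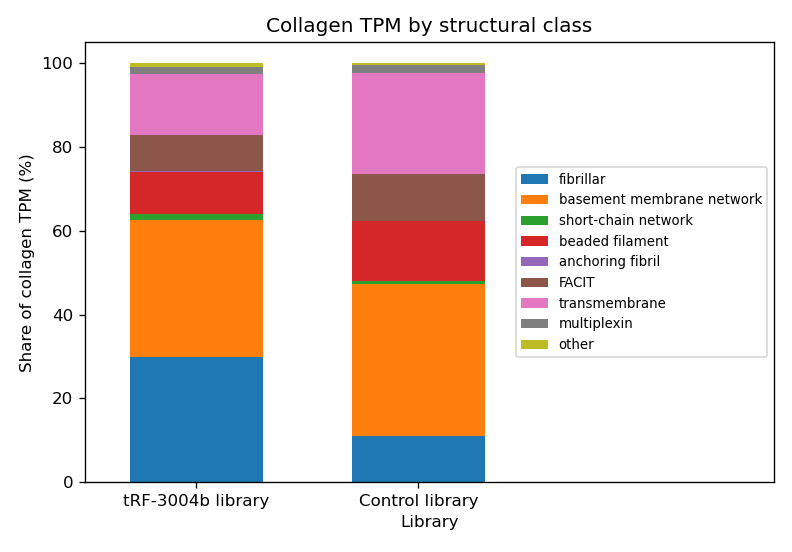
Share of the summed collagen TPM (vertical axis, percent) held by each structural class in the tRF-3004b library (left bar) and the control library (right bar). Fibrillar collagens hold 29.8% and 11.1% and transmembrane collagens 14.4% and 24.3%.

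The 24 near-zero collagens had 55 counts in all in the tRF-3004b library and 125 in the control library. Of these, 5 (COL5A3, COL9A1, COL11A2, COL20A1 and COL22A1) had no count in either. COL1A2 gave 31 of the tRF-3004b counts. The other 23 had 24 and 117 counts, giving a log2 ratio of sums of 1.20 (interval 0.50 to 1.85). This was close to the 1.16 of all 14586 genes under 1 CPM in the control library, and to the 1.37 of the 7040 protein-coding ones. Both sets are low in the control library by choice. Of the 19 near-zero collagens with a count, 5 had an interval above 0 (COL1A2, COL6A3, COL8A2, COL11A1 and COL15A1), and apart from COL1A2 these rested on 2 to 5 tRF-3004b counts. Of all such genes 13.3% had an interval above 0, and of the protein-coding ones 604 of 3698. COL6A3 had 5 and 11 counts, COL15A1 3 and 4, COL8A2 2 and 1, and COL11A1 2 and 0. The rest lay within counting error. They include COL10A1 of the cartilage growth plate, COL7A1, which anchors skin to its basement membrane, and COL17A1 of hemidesmosomes. COL23A1, COL10A1 and COL4A3 had 0 tRF-3004b counts against 19, 14 and 7 control counts, and COL21A1, COL28A1 and COL9A2 had 0 against 2 each. COL26A1 had 2 and 13 counts, COL9A3 1 and 12, COL8A1 3 and 7, COL7A1 2 and 2, COL16A1 1 and 1 and COL17A1 1 and 0. A count of 0 in the tRF-3004b library allows up to 1.69 CPM, above the limit of 1 CPM used for the control library, so absence of these genes was not detectable at this depth.

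**Figure D5:**
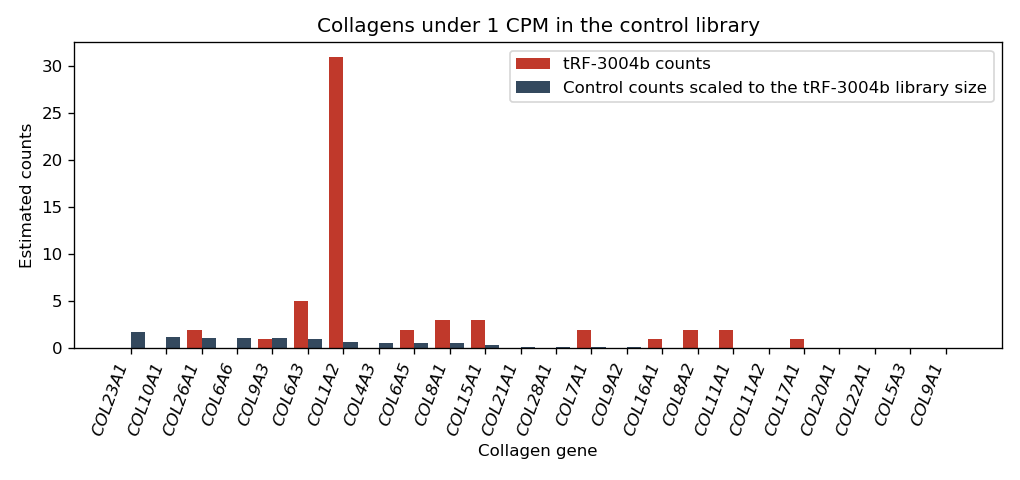
Estimated counts (vertical axis) of the 24 collagens under 1 CPM in the control library, as tRF-3004b counts (red bars) and control counts scaled to the tRF-3004b library size (dark bars). COL1A2, with 31 tRF-3004b counts, is the tallest bar, and no other gene exceeds 5.

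Few collagens carry the complement of bases 2 to 8 of the mimetic. The heptamer agatttg was searched in the 3' UTR of the GENCODE release 29 transcript paired with each gene's RefSeq transcript. It occurred in 3 of 19 expressed collagens searched, against 14.9% of all expressed genes searched, and in 5 of 43 collagens in all, against 13.4%. The paired transcript is 35.3% as long as the RefSeq transcript counted for COL25A1, 71.3% for COL19A1, 78.5% for COL13A1 and 80.7% for COL14A1, so these may have been searched only in part. For COL24A1 the transcript searched was not its most abundant one, and COL1A1 was not searched. The sites of the expressed genes are shown on the gene's strand (GRCh38) with the heptamer in capitals.
COL4A6, chrX:108156718-108156724, minus strand: ctacctcagaaAGATTTGatgggccacaa
COL4A4, chr2:227003800-227003806, minus strand: tttcagaaatgAGATTTGagagatccgac
COL4A4, chr2:227005871-227005877, minus strand: ctaaatttaaaAGATTTGttggaaaaaat
COL5A1, chr9:134842664-134842670, plus strand: gagggactgccAGATTTGgacactatatt

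Of these genes COL4A6 had the log2 ratio of -2.25 given above, COL5A1 one of -0.82 with an interval from -1.98 to 0.13, and COL4A4 no tRF-3004b count. The other genes with a site were the near-zero COL10A1 and COL21A1, which also had no tRF-3004b count. COL4A1, COL4A5, COL6A2, COL27A1, COL25A1 and COL14A1 had intervals below 0 without the heptamer in the stretch searched. The share of collagens with a site was near that of all genes.

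Genes that modify, process and bind collagens were taken as 6 lists, and are given for members with at least 1 CPM in the control library. Of all genes 7.54% were higher by 2-fold or more, and 13.5% lower by that much with tRF-3004b counts. Of 14 such prolyl and lysyl modification genes, 4 were at least 2-fold higher and 1 lower, with a median log2 ratio of -0.13. The lysyl hydroxylase PLOD1 stood at 1.23, the prolyl isomerase PPIB at 1.16, the prolyl hydroxylase subunit P4HB at -0.05, the prolyl 3-hydroxylase partner CRTAP at -0.91 and P4HA2 at -1.53. Of 14 folding and secretion genes none was past 2-fold in either direction, with a median of -0.26, or 0.039 after subtraction of length-bin medians. The collagen chaperone SERPINH1 (HSP47) had 21 counts in the tRF-3004b library and 197 in the control library at 0.26 (interval -0.46 to 0.91). The coat protein SEC13 stood at 0.64, the chaperone HSPA5 at 0.40, the ubiquitin ligase adaptor KLHL12 at -0.92 and the coat protein SEC24D at -0.96.

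Among genes acting outside the cell, of 13 processing and cross-linking genes 5 with tRF-3004b counts were at least 2-fold lower and 1 higher. All but PXDN of these 5 rested on few tRF-3004b counts, with 3 each for ADAMTS2, TLL1 and TLL2 and 5 for LOXL2. The intervals of TLL1 and TLL2 included 0. The median was -1.29, which is the value of LOXL2, or -0.86 with the 3 genes that had no tRF-3004b count (LOXL4, LOXL1 and PCOLCE) at their bound. PXDN, the peroxidase that cross-links type IV collagen, had 50 counts in the tRF-3004b library and 1264 in the control library at -1.17 (interval -1.61 to -0.76). The lysyl oxidase LOX stood at -0.90, the procollagen protease ADAMTS3 at -0.86 and the enhancer PCOLCE2 at 0.10. Of 18 basement membrane partners 9 were at least 2-fold lower and none higher by this filter, with a median of -0.91. Among those with at least 10 CPM on average, the laminin chain LAMA1 at -2.22 and FRAS1 at -1.81 were lowest, and FREM2 at -0.34 and FBLN1 at -0.19 highest. Of all 18, LAMB2 was lowest at -2.56 and AGRN highest at 0.87, the only 1 above 0. Of all 23 listed partners, 4 had a fitted value at least 2-fold higher, against 3156 of the 19943 genes with a count in either library. All 4 were under 1 CPM in the control library, where 13.3% of genes with a count, and 604 of 3698 protein-coding ones, had an interval above 0. The interval lay above 0 for 3 of these 4, SPARC, LAMB3 (6 and 1 counts) and SMOC2 (2 and 0 counts), named after their values were seen. Of 7 receptor genes 1 with tRF-3004b counts was at least 2-fold lower and none higher, MRC2 having 0 and 55 counts, with a median of -0.32, the integrin chains ITGA2, ITGB1 and ITGA1 standing at -0.48, -0.32 and -0.17. Of 7 degradation genes 2 with tRF-3004b counts were at least 2-fold lower and none higher, with a median of -0.35, or -0.21 with MMP15, which had no tRF-3004b count, at its bound. The membrane protease MMP16 stood at -1.20 and the inhibitor TIMP2 at -1.10, against TIMP1 at -0.21 and the dipeptidase PEPD at 0.03. After subtraction of length-bin medians the processing and cross-linking genes stood at -0.94, the basement membrane partners at -0.61, the receptors at -0.041 and the degradation genes at -0.76.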

How the data were processed

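Poly-A RNA of 2 HEK293T libraries was measured, 1 per group. The submitters' processing notes name kallisto 0.46.1 and the build GRCh38. The file headers show that the authors deposited a table of 70866 transcripts per library with length, effective length, estimated counts and TPM. These deposited estimated counts can be fractional, because reads that fit several transcripts are divided among them; deposited TPM values are per length and keep no depth. Annotation release and strand setting: not given in the sources used here.

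RefSeq gene names were found for 70245 transcripts and GENCODE release 29 names for 293. The 328 without a name, 0.0713% of tRF-3004b and 0.0723% of control counts, were left out. Counts were summed per gene and rounded; TPM was summed. Libraries were scaled by TMM (edgeR 4.0.16 in R 4.3.3; factors 0.983 for tRF-3004b and 1.02 for control). A single library per group leaves no spread, so no test was fitted. Log2 ratios add 0.5 counts at a common library size. The exact conditional 95% interval (Clopper-Pearson, scipy 1.17.1) and the limit of 3 counts cover counting error only, as amplified reads carry no molecular identifier and are not independent. Ratios of ratios are conditional odds ratios. The intervals were tested on simulated data that held counting error only. That test could not check error from amplification or from dividing reads among transcripts.

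Members, lists, pairs and alternatives were chosen with earlier results of these data known. All members are named. Each list is shown by its 2 highest and 2 lowest genes of at least 10 CPM on average, plus SERPINH1, P4HB and PXDN. The alternatives were total counts or DESeq2 1.42.0 for scaling, TPM with 1 added, a pseudocount of 5, length-bin medians subtracted, and other limits for calling a gene expressed. A gene of the HEK293T list is not reported here.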

Additional observations from a re-analysis of the deposited data

How the results depend on the processing

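With 1 library per group nothing could be left out in turn, and depth limits most members: 10 of the 20 expressed collagens had under 10 counts in the tRF-3004b library. No paired analysis was possible because each group has 1 library and the labels carry no replicate numbers. All 20 expressed collagens stayed within their counting intervals with total counts, DESeq2 size factors and a pseudocount of 5, and 19 did with TPM (the exception COL3A1, at 2.03) and with length-bin medians subtracted (COL25A1, at -0.80). The median log2 ratio of all genes was -0.19 in the main setting. It was -0.24 with total counts, -0.16 with DESeq2, -0.18 with a pseudocount of 5, -0.45 with TPM and -0.074 with length bins.

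The count of collagens at least 2-fold higher was 1 with total counts, TPM or a pseudocount of 5, 0 at a limit of 5 CPM, and 5 at a mean of 1 CPM over both libraries. COL1A2, COL6A3 and COL8A1 pass that mean only through their tRF-3004b counts, and COL4A4 fails it, which changes both this count and the median below. Without a filter 39 collagens entered, 12 of them at least 2-fold higher and 16 with a fitted value past 2-fold lower, zero counts included. Of all 19943 genes with a count in either library, 3156 were higher and 6048 lower by the same limits. The median collagen stood at -0.45 with length-bin medians subtracted, -0.60 at a mean of 1 CPM, -0.72 at 0.5 TPM and -0.59 without a filter. The log2 ratio of summed counts was -0.77 with TPM and -0.12 with length bins. Chosen after seeing the data, it was -0.76 without COL1A1, COL1A2 and COL3A1 and -0.32 without COL25A1, the fibrillar sum reversed to -0.62 without COL1A1, COL1A2 and COL3A1, and the median for 1 to 100 CPM and at least 4000 bases was -0.72.

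For the lists, folding and secretion stood at -0.31 with total counts, -0.58 with TPM and 0.039 with length bins, a reversed sign. Modification stood at -0.45 with TPM and -0.051 with length bins, receptors at -0.66 and -0.041, and degradation at -0.66 and -0.76. With length bins, processing and cross-linking stood at -0.94 and basement membrane partners at -0.61. The cause of these shifts was not tested.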

Other observations

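The split of a collagen's counts among its transcripts differed between the libraries for several genes, as kallisto estimated it. Of the COL4A5 transcripts, which differ by 18 bases, the shorter held 94.5% of the gene's counts in the tRF-3004b library and 38.4% in the control library. For COL2A1, 100% of 11 counts in the tRF-3004b library and 36.6% of 65 counts in the control library went to the longer transcript, which keeps a cysteine-rich domain near the start of the chain. For COL18A1 all 4 tRF-3004b counts went to a transcript that held 0 of the control counts. Few reads can tell such transcripts apart, kallisto gives no error here, and none of these splits was tested.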
